A study of Trametes versicolor and Gelatoporia subvermispora with 30 samples.

Results

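The genes described here are 140 genes of the white-rot fungus Trametes versicolor whose transcripts were more abundant with 4-hydroxybenzoic acid (4HBA) than with cellobiose alone. They were selected on measured values from the 12295 genes tested and the 14570 genes in the files. A gene with a locus tag for a name was kept when its mean with 4HBA was at least 5 normalised CPM (read counts after correction for library depth) and at least 2 times its mean with cellobiose. In addition, the lowest 4HBA library had to lie above the highest cellobiose library, and the mean on poplar had to stay below 8 times the mean with 4HBA. The comparison of 4HBA with cellobiose therefore chose the members and is described without a test.

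Mycelium was grown in submerged culture in a defined minimal medium, and RNA was sequenced from 5 groups of 3 libraries. The groups were 5 g/L cellobiose with 2 mM 4HBA, 5 g/L cellobiose with 2 mM syringic acid, 5 g/L cellobiose with 25 mg of lignin isolated from poplar in 25 mL, 25 mL of medium with 2 g of milled poplar and no cellobiose, and 5 g/L cellobiose alone. The labels do not say that the libraries of a group came from separate cultures, so p-values measure only the spread between these libraries, which may be technical. The study examined the intracellular catabolism of lignin in white-rot fungi, and a second species in it is not described here.

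White-rot fungi break lignin down outside the cell with oxidative enzymes, and small aromatic acids are among the products. 4HBA occurs in poplar lignin as an ester-bound side group, and syringic acid carries methoxy groups on the ring that 4HBA lacks. Inside the cell such acids are known to be decarboxylated, hydroxylated and cleaved at the ring, by enzymes that include cytochrome P450 monooxygenases, flavin-dependent hydroxylases and ring-cleaving dioxygenases, before their carbon enters central metabolism. Neither the files nor the reference gene table name the product of any member, so no member is given a role, and it was not determined which of them belong to these enzyme families.

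Gene counts ranged from 16.7 to 50.4 M (mega-counts) per library. A gene without counts could be at up to 3 counts, which is 0.0613 to 0.205 CPM, for counting error only. The members held 1.55% to 1.99% of the gene counts in the 4HBA libraries, 1.57% to 1.76% with syringic acid, 1.38% to 1.54% with lignin, 2.76% to 3.24% on poplar and 0.492% to 0.526% with cellobiose. Libraries of the 4HBA and cellobiose groups differed in type from the others. The 10 most abundant genes took 41.9% to 48.4% of gene counts in the 4HBA and cellobiose libraries and 3.84% to 7.45% in the syringic acid, lignin and poplar libraries. Entries outside genes were 45.8% to 48.7% and 9.60% to 14.2% of all counts in the same sets of libraries. In comparisons of syringic acid, lignin or poplar with cellobiose or 4HBA, the condition and library type cannot be told apart. By these measures lignin against syringic acid, and poplar against lignin, stay within a library type. Poplar and lignin libraries still differed in depth, with 42.2 to 50.4 M against 24.5 to 27.3 M gene counts. Their scaling factors (TMM) also differed, at 0.971 to 1.01 for poplar and 1.43 to 1.47 for lignin. The sample numbers of the lignin and syringic acid groups are written in another form than those of the 4HBA, poplar and cellobiose groups. The labels do not say whether these forms mark batches, and in poplar against lignin, as in syringic acid or lignin against cellobiose and syringic acid against 4HBA, condition and label form cannot be told apart.

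Among the 140 members, the mean with 4HBA was at least 3 times that with cellobiose in 71, at least 5 times in 32, at least 10 times in 16 and at least 20 times in 6, with a median of 3.05 times. All 140 were called higher by edgeR, against 9% of all genes, and nothing is read from that count, since the same values chose the members. TRAVEDRAFT_45010 had the largest ratio, 62.7 times. It was at 232, 84.8 and 120.3 CPM with 4HBA, against 2.83, 2.17 and 1.97 CPM with cellobiose. The level of TRAVEDRAFT_45010 was 23.5, 23.1 and 16.9 CPM with syringic acid, 2.48, 2.38 and 2.22 CPM with lignin, and 0.706, 0.715 and 1.12 CPM on poplar. So it stood far above cellobiose with both acids, within the range of the cellobiose libraries with lignin, and below them on poplar.

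TRAVEDRAFT_170215 followed a similar order at 1154, 1655 and 848 CPM with 4HBA, against 37.6, 36.4 and 47.4 CPM with cellobiose. Its level was 140.5, 159.9 and 203 CPM with syringic acid, 47.9, 60.2 and 51.3 CPM with lignin, and 34.7, 25.3 and 14.4 CPM on poplar. Every syringic acid library was above every lignin library, and every poplar library was below every cellobiose library. TRAVEDRAFT_61111 differed from these genes in that no other condition came near 4HBA. Its level was 208, 255 and 109 CPM with 4HBA and 6.17, 6.51 and 6.50 CPM with cellobiose. With syringic acid it was at 8.88, 9.26 and 7.96 CPM, with lignin at 7.37, 7.40 and 7.25 CPM, and on poplar at 5.04, 5.25 and 4.18 CPM. The mean of TRAVEDRAFT_61111 with 4HBA was 21.9 times its mean in the next highest condition, syringic acid.

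In the 4HBA libraries the most reads of any member, without scaling for gene length, fell on TRAVEDRAFT_155039. It was at 3263, 3432 and 2554 CPM there, against 446, 319 and 429.7 CPM with cellobiose. It was at 442, 316 and 561 CPM with syringic acid, 106, 169.6 and 174 CPM with lignin, and 42.6, 39.0 and 31.5 CPM on poplar. The syringic acid libraries overlapped the cellobiose libraries for this gene, while all lignin and poplar libraries were lower.

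**Figure D1:**
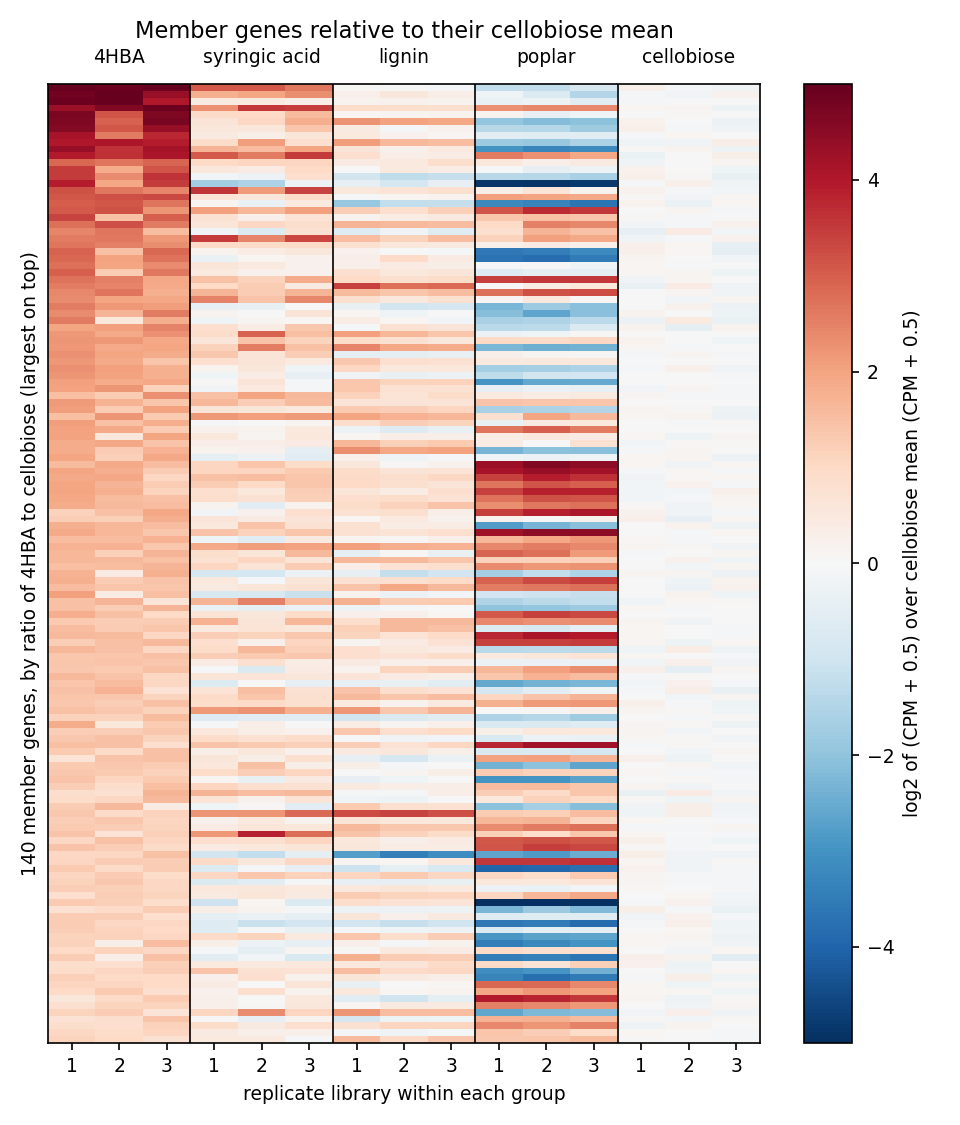
Each row is a member gene and each column a library, in the order 4HBA, syringic acid, lignin, poplar and cellobiose with 3 replicates each; colour gives the log2 ratio of its level (CPM + 0.5) to the mean cellobiose level, and colours end at 5 in either direction. The 4HBA columns are red in every row by the choice of members, the syringic acid and lignin columns are mostly pale red, and the poplar columns hold strong red and strong blue rows.

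The highest mean of the 5 conditions was with 4HBA in 78 members, with syringic acid in 9, with lignin in 10, on poplar in 43 (30.7%, against 36.1% of all genes) and with cellobiose in none. The rule had excluded cellobiose as the highest condition and favoured 4HBA, so nothing is read from the counts for either. The share of all genes was computed for poplar only, so the counts for syringic acid and lignin are a description. In 43 members the 4HBA mean was at least 2 times the mean of every other condition, and in 41 of these all 4HBA libraries also lay above all libraries of the other 4 conditions. That was so in 0.35% of all genes, but the rule had fixed the part against cellobiose, and nothing is read from the difference. It was at least 5 times every other condition in 11 members and at least 10 times in 4, namely TRAVEDRAFT_61111, TRAVEDRAFT_50752, TRAVEDRAFT_50755 and TRAVEDRAFT_117172. The median member reached 51.9% of its 4HBA mean with syringic acid, 46.9% with lignin and 36.0% on poplar. The spread around that median was widest on poplar, where single members ranged between 0.253% and 737% of their 4HBA mean.

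The plot of 8 members by library shows forms that this variation took. TRAVEDRAFT_50755 was at 843, 211 and 619.8 CPM with 4HBA, against 50.6, 65.6 and 48.5 CPM with cellobiose. With syringic acid it was at 16.0, 18.6 and 45.7 CPM, with lignin at 40.7, 29.3 and 40.7 CPM, and on poplar at 1.41, 1.35 and 1.47 CPM. Every library with syringic acid, lignin or poplar was thus below every cellobiose library, so that 4HBA stood alone above it. TRAVEDRAFT_72970, which is not in that plot, was the opposite case. It was at 8.66, 10.0 and 7.74 CPM with 4HBA, 8.42, 10.7 and 9.10 CPM with syringic acid, 8.71, 10.1 and 8.47 CPM with lignin, 8.41, 7.54 and 10.2 CPM on poplar, and 4.24, 3.64 and 3.66 CPM with cellobiose. The 4 groups with an aromatic acid, lignin or wood overlapped for this gene, and all of their libraries were above all cellobiose libraries.

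**Figure D2:**
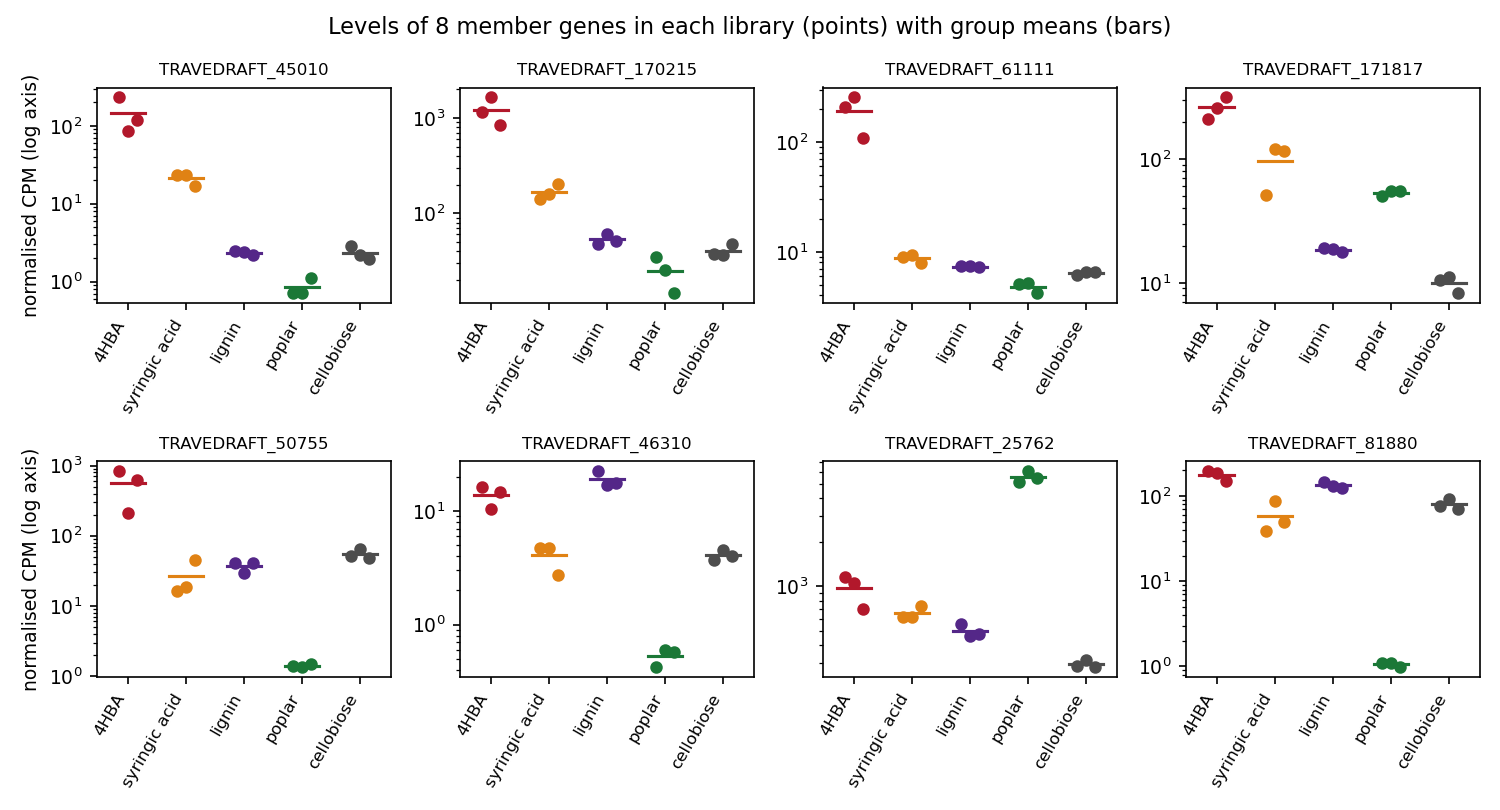
Normalised CPM on log axes of 8 member genes in each library, as points, with group means as bars; groups run from 4HBA, syringic acid, lignin and poplar to cellobiose. The 4HBA points lie above the cellobiose points in every panel by the choice of members. By its mean, poplar is the lowest group for TRAVEDRAFT_45010, TRAVEDRAFT_170215, TRAVEDRAFT_61111, TRAVEDRAFT_50755, TRAVEDRAFT_46310 and TRAVEDRAFT_81880, and the highest for TRAVEDRAFT_25762.

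Syringic acid was given at the same 2 mM as 4HBA, and this was the 1 pair of acids compared. With syringic acid, 108 of the 140 members were lower than with 4HBA and 5 were higher by edgeR's quasi-likelihood test (Benjamini-Hochberg adjusted p below 0.05 over all genes), against 22% lower and 26.2% higher among all genes tested. The 4HBA libraries had chosen the members for being high, so this count is a description, and single genes are given without a p-value or interval. The median log2 difference, syringic acid minus 4HBA, was -0.94 over the members and 0.10 over all genes. For TRAVEDRAFT_61111 the log2 difference was -4.46, and for TRAVEDRAFT_170215 it was -2.86.

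The 5 members that were higher with syringic acid than with 4HBA are named here after their values were seen. They were TRAVEDRAFT_124955, TRAVEDRAFT_45188, TRAVEDRAFT_45147, TRAVEDRAFT_82705 and TRAVEDRAFT_68714. TRAVEDRAFT_124955 had the largest log2 difference, 2.00, and was at 23.5, 74.9 and 36.6 CPM with syringic acid, against 13.8, 8.12 and 11.5 CPM with 4HBA. All 3 syringic acid libraries were higher, though they spread widely among themselves. For TRAVEDRAFT_45188, whose log2 difference was 1.31, levels were 24.1, 24.6 and 38.1 CPM with syringic acid, against 13.3, 9.96 and 11.5 CPM with 4HBA. It was higher still with lignin, at 50.9, 55.5 and 49.9 CPM. The remaining log2 differences were 0.74, 0.71 and 0.38 for TRAVEDRAFT_45147, TRAVEDRAFT_82705 and TRAVEDRAFT_68714. The call of TRAVEDRAFT_82705 was lost without any single 4HBA library, without syringic acid replicate 1 or 3, and when both groups were fitted alone. The other 27 members were not called different between the acids, and their 95% intervals together spanned -0.98 to 1.26 on the log2 scale, with 25 of the intervals inside 1 in either direction. These intervals rest on the same 4HBA libraries, so they too are a description.

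Against cellobiose, 85 members were higher with syringic acid and 10 were lower, where 27.1% and 22.4% of all genes were called in these directions. With lignin 77 were higher and 13 lower, against 26.9% and 23% of all genes. On poplar 69 were higher and 51 lower, against 35.7% and 35.4% of all genes, so that the lower share on poplar was near that of all genes. These 3 comparisons share the cellobiose libraries, which had chosen the members for being low, and they cross library types. The median log2 difference from cellobiose was 0.66 with syringic acid, 0.56 with lignin and 0.48 on poplar over the members, and 0.07, 0.07 and -0.01 over all genes. With upper-quartile scaling, the split of all genes was 4597 higher and 1952 lower with syringic acid, 4541 and 2021 with lignin, and 4915 and 1868 for syringic acid against 4HBA. With TMM, the scaling used throughout, the split was 3330 higher and 2760 lower with syringic acid, 3313 and 2825 with lignin, and 3227 and 2702 for syringic acid against 4HBA.

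A stricter count asked for a mean at least 2 times that of cellobiose with no overlap of libraries. It was met by 47 members with syringic acid (5.29% of all genes), 42 with lignin (5.12%) and 61 on poplar (14.4%). A mean of at most 0.5 times that of cellobiose with no overlap was seen in 1 member with syringic acid (3.3% of all genes), 4 with lignin (3.83%) and 43 on poplar (15.9%). The choice of members for low cellobiose levels favours the higher side in these counts.

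**Figure D3:**
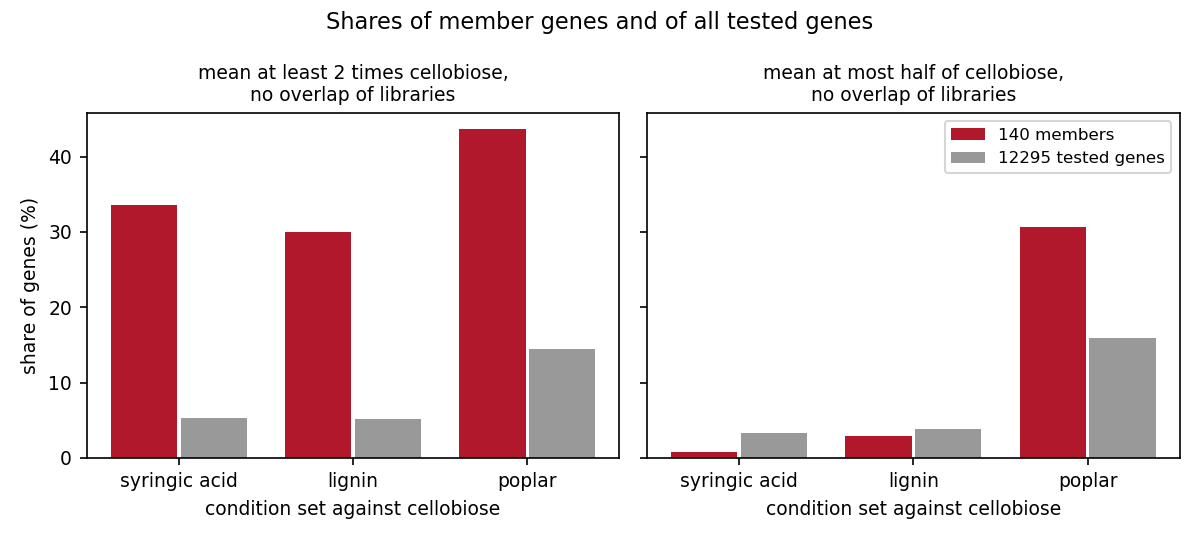
Share of the 140 members (red) and of the 12295 tested genes (grey), in percent, whose mean was at least 2 times (left) or at most 0.5 times (right) that with cellobiose, without overlap of libraries. The members' share above cellobiose is 33.6% with syringic acid, 30% with lignin and 43.6% on poplar, and their share below it is 30.7% on poplar.

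Neither the syringic acid nor the lignin libraries were used to choose the members, and both are of the same library type. In this comparison 21 members were higher and 38 lower with lignin than with syringic acid (edgeR's quasi-likelihood test, adjusted p below 0.05), against 3.95% and 4.79% of all genes tested. Among the 8446 genes that also reached 5 CPM with 4HBA the shares were 4.51% and 5.59%, a count added after the calls were seen. As shares of the members they were 15% and 27.1%, and 81 members were not called. The median log2 difference, lignin minus syringic acid, was -0.25 over the members and -0.01 over all genes. Without lignin replicate 2 the number of lower members was 24. With both groups fitted alone 19 members were higher and 32 lower, while the calls over all genes numbered 344 in place of 1075. Without syringic acid replicate 2, 25 members were higher and 41 lower. The calls over all genes then numbered 2258, or 18.3% in place of 8.74%, so the background share depended on that library.

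Genes lower with lignin included the member with the largest 4HBA response. TRAVEDRAFT_45010 averaged 2.36 ± 0.129 CPM in the lignin libraries and 21.2 ± 3.72 CPM in the syringic acid libraries (SD, n = 3 each), a log2 difference of -3.16 ± 0.31 (SE; edgeR adjusted p = 1.3e-05). All lignin libraries were below all syringic acid libraries for it. TRAVEDRAFT_43547 was at 1.61, 1.77 and 1.97 CPM with lignin, against 16.4, 5.69 and 14.4 CPM with syringic acid, a log2 difference of -2.78 (edgeR adjusted p = 6.43e-05). Its syringic acid libraries overlapped those with 4HBA, which were at 12.5, 8.46 and 7.28 CPM. TRAVEDRAFT_131483 was at 6.51, 4.38 and 4.52 CPM with lignin, against 32.5, 23.2 and 43.4 CPM with syringic acid, with a log2 difference of -2.69 (edgeR adjusted p = 5.32e-06).

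TRAVEDRAFT_171817 was at 19.2, 18.7 and 17.8 CPM with lignin, against 51.3, 120.1 and 115 CPM with syringic acid, and differed by -2.36 on the log2 scale (edgeR adjusted p = 1.94e-05). On poplar it was at 50.0, 55.5 and 55.0 CPM, above every lignin library. TRAVEDRAFT_30442 was at 70.5, 44.4 and 54.9 CPM with lignin, against 254, 203 and 342 CPM with syringic acid, with a log2 difference of -2.24 (edgeR adjusted p = 9.98e-06). Unlike the genes before it, it was highest with 4HBA and next highest with cellobiose. Its levels were 997, 982 and 1346 CPM with 4HBA and 592, 425 and 426 CPM with cellobiose.

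Among the members higher with lignin, TRAVEDRAFT_46310 was at 22.6, 17.1 and 17.7 CPM with lignin, against 4.68, 4.77 and 2.72 CPM with syringic acid, a log2 difference of 2.24 ± 0.20 (SE; edgeR adjusted p = 4.88e-06). Its syringic acid libraries lay near the cellobiose libraries, which were at 3.73, 4.52 and 3.99 CPM, and its 4HBA libraries at 16.2, 10.4 and 14.8 CPM were all below the lignin libraries. TRAVEDRAFT_50909 was at 77.8, 49.4 and 51.7 CPM with lignin, against 14.3, 17.3 and 9.47 CPM with syringic acid, a log2 difference of 2.13 (edgeR adjusted p = 7.49e-05). TRAVEDRAFT_30752 was at 143, 99.4 and 97.7 CPM with lignin, against 27.9, 37.1 and 24.2 CPM with syringic acid, a log2 difference of 1.93 (edgeR adjusted p = 0.00026). For both, every lignin library was above every syringic acid library and above every cellobiose library. TRAVEDRAFT_116050 and TRAVEDRAFT_81880 differed by 1.31 and 1.21 on the log2 scale, and the call of TRAVEDRAFT_81880 was lost when both groups were fitted alone.

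**Figure D4:**
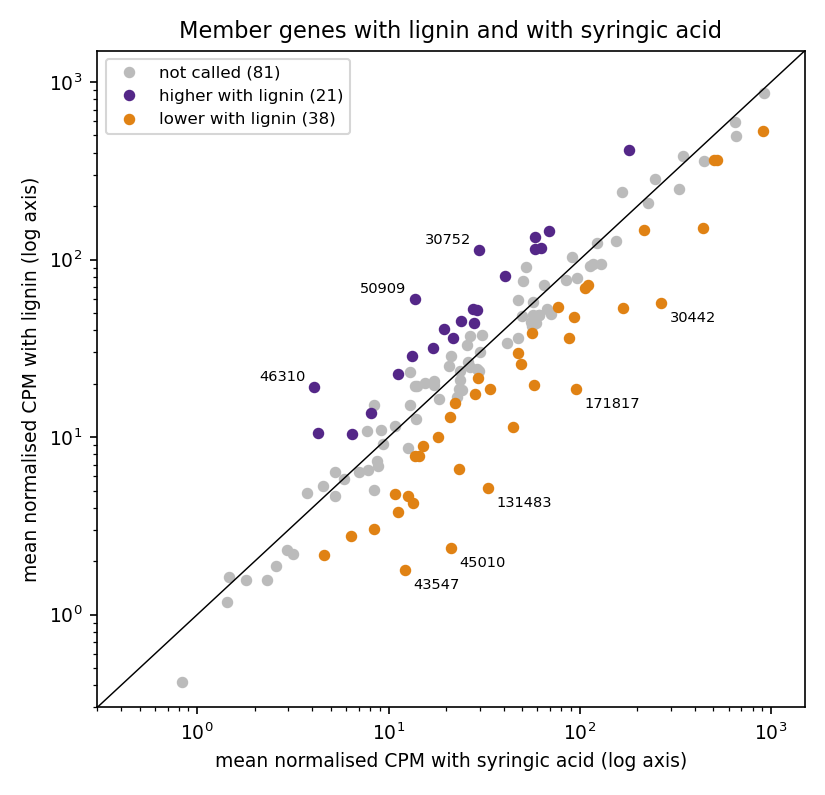
Mean normalised CPM with lignin (vertical, log axis) against syringic acid (horizontal, log axis) for the 140 members, with the line of equal levels; purple points were called higher with lignin (21), orange points lower (38) and grey points were not called (81). The labelled genes are those with the largest differences, TRAVEDRAFT_45010 and TRAVEDRAFT_43547 farthest below the line and TRAVEDRAFT_46310 farthest above it.

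Compared with lignin, 54 members were higher and 66 lower on poplar by edgeR's quasi-likelihood test, against 37.4% and 39.4% of all genes, so the share that was higher (38.6%) was close to that of all genes and the share that was lower (47.1%) somewhat above. The 8-fold limit of the rule removed genes from the high side of poplar before this count, which took the selection from 143 to 140 genes. The median log2 difference, poplar minus lignin, was -0.31 over the members and -0.04 over all genes, and single members ranged between -6.99 and 4.72. With upper-quartile scaling the split of all genes was 3541 higher and 5982 lower, in place of 4595 and 4843, and that of the members was 53 and 71.

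In 36 members every poplar library was above every 4HBA library, which is 25.7% of them against 38.1% of all genes tested. The members had been chosen for high 4HBA levels and under the poplar limit, so nothing is read from the difference between these shares. TRAVEDRAFT_25762 was at 5157, 6132 and 5478 CPM on poplar, against 558, 457 and 473 CPM with lignin, a log2 difference of 3.49 ± 0.17 (SE; edgeR adjusted p = 6e-11). Its 4HBA libraries at 1159, 1050.3 and 705 CPM were between these groups and above its cellobiose libraries at 287, 316 and 283 CPM. TRAVEDRAFT_168065 was at 164, 211 and 185 CPM on poplar, against 12.2, 8.40 and 9.39 CPM with lignin, a log2 difference of 4.23 (edgeR adjusted p = 8.82e-12). TRAVEDRAFT_167576 was at 1618, 1923 and 1930.2 CPM on poplar, against 146, 139 and 154 CPM with lignin, a log2 difference of 3.64 (edgeR adjusted p = 5.37e-12). Poplar was the highest group for each of these genes, and lignin the lowest of the groups other than cellobiose. The largest difference was that of TRAVEDRAFT_49658, 4.72 on the log2 scale (edgeR adjusted p = 3.34e-11), a gene just inside the poplar limit.

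In 55 members every poplar library was below every cellobiose library, a share of 39.3% that is near the 38.2% of all genes tested. An average under 1 CPM on poplar was found in 10 members, 7.14% of them, against 0.379% of the 8446 genes at 5 CPM or more with 4HBA. The 4HBA libraries defined those 8446 genes and also chose the members, so nothing is read from the difference between these shares. All 140 members still had at least 3 counts in every library. TRAVEDRAFT_81880 was at 1.08, 1.10 and 0.987 CPM on poplar, against 147, 131 and 126 CPM with lignin, a log2 difference of -6.99 ± 0.29 (SE; edgeR adjusted p = 1.71e-11). It was at 198, 185 and 148 CPM with 4HBA and 76.3, 93.0 and 70.7 CPM with cellobiose, so that all other groups were far above poplar. TRAVEDRAFT_24277 was at 0.518, 0.409 and 0.459 CPM on poplar, against 26.0, 18.5 and 17.3 CPM with lignin, a log2 difference of -5.47 (edgeR adjusted p = 2.73e-09). Its 4HBA libraries at 21.3, 17.7 and 18.6 CPM and its syringic acid libraries at 10.4, 28.4 and 13.0 CPM overlapped those with lignin. TRAVEDRAFT_46310 and TRAVEDRAFT_30752, which were higher with lignin than with syringic acid, were lower on poplar than with lignin, with log2 differences of -5.16 and -5.12 (edgeR adjusted p = 6.13e-11 and 8.38e-10). Poplar cultures had no cellobiose, and the part of that difference in medium was not tested.

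The 4HBA libraries agreed less well for some members than for others. In 14 of the 140 members (10%), 4HBA replicate 2 was below 0.5 times each of the other 4HBA libraries. Of the 8446 genes at 5 CPM or more with 4HBA this was so in 16 (0.189%), and the 14 members are among them. The same 4HBA libraries chose the members, so nothing is read from the difference between these shares. TRAVEDRAFT_46296 was at 143, 43.6 and 150.3 CPM with 4HBA, and TRAVEDRAFT_50755 and TRAVEDRAFT_45010 also had their lowest value in replicate 2. In the reverse direction, TRAVEDRAFT_170215 and TRAVEDRAFT_61111 had their highest value in that library. No member was that low in replicate 1 and 1 member was in replicate 3. Without 4HBA replicate 2 the selection gave 152 genes, of which 134 are among the 140.

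Where members lie next to each other was read from the gene order of the RefSeq table for Trametes versicolor v1.0, in which 14560 of the 14570 genes in the files were found. All 140 members are listed there as protein coding, with a median gene span of 1651.5 bases, against 1592 bases over the tested genes. The build of the files is not given in the sources used here, so no coordinates are printed. There were 9 pairs of members that were direct neighbours, which together hold 18 members, and 36 members had another member within 5 genes. Among the 140 genes lowered by 4HBA under the same thresholds without the poplar limit, there were 12 neighbouring pairs, and 41 genes had another within 5 genes. Closeness of this kind was thus also seen in genes that moved the other way with 4HBA. It was not counted for all genes tested, so how common it is in the genome is not known from these counts.

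Members next to each other did not always share a profile. TRAVEDRAFT_43547 and TRAVEDRAFT_82705 are neighbours and were both lower with lignin than with syringic acid, with log2 differences of -2.78 and -1.82. TRAVEDRAFT_26197 and TRAVEDRAFT_68880 are neighbours that were both higher on poplar than with lignin, with log2 differences of 1.60 and 0.79. In contrast, TRAVEDRAFT_27783 averaged 6462 ± 679.6 CPM on poplar and 872 ± 68.9 CPM with lignin (SD, n = 3 each), and its neighbour TRAVEDRAFT_145154 averaged 2.61 ± 0.573 CPM on poplar and 3.79 ± 0.448 CPM with lignin. TRAVEDRAFT_170215, with its ratio of 30.1 to cellobiose, lies beside TRAVEDRAFT_72970, with a ratio of 2.29.

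Both of the stretches described next were chosen after their values were seen. In the first, 6 of 23 consecutive genes were members, from TRAVEDRAFT_46296 to TRAVEDRAFT_119250, with TRAVEDRAFT_46305, TRAVEDRAFT_46310, TRAVEDRAFT_46312 and TRAVEDRAFT_46313 between them. The log2 ratios of 4HBA to cellobiose of the other genes there ran between -1.29 and 1.22 on the scale of CPM + 0.5. All 6 members there had their lowest 4HBA value in replicate 2, and in TRAVEDRAFT_46296, TRAVEDRAFT_46305 and TRAVEDRAFT_46312 it was below 0.5 times each other 4HBA library. All of these members except TRAVEDRAFT_119250 were lower on poplar than with lignin.

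In the second stretch, 5 of 11 consecutive genes were members, namely TRAVEDRAFT_73820, TRAVEDRAFT_50752, TRAVEDRAFT_50755, TRAVEDRAFT_30752 and TRAVEDRAFT_50760. The 6 other genes there had log2 ratios between 0.08 and 0.60. In all members of the second stretch but TRAVEDRAFT_30752, 4HBA replicate 2 was below 0.5 times each other 4HBA library. On poplar the members had unlike levels. TRAVEDRAFT_73820 averaged 14.3 ± 0.441 CPM on poplar and 6.54 ± 0.683 CPM with lignin, whereas TRAVEDRAFT_50755 averaged 1.41 ± 0.0601 CPM on poplar and 36.9 ± 6.58 CPM with lignin (SD, n = 3 each).

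**Figure D5:**
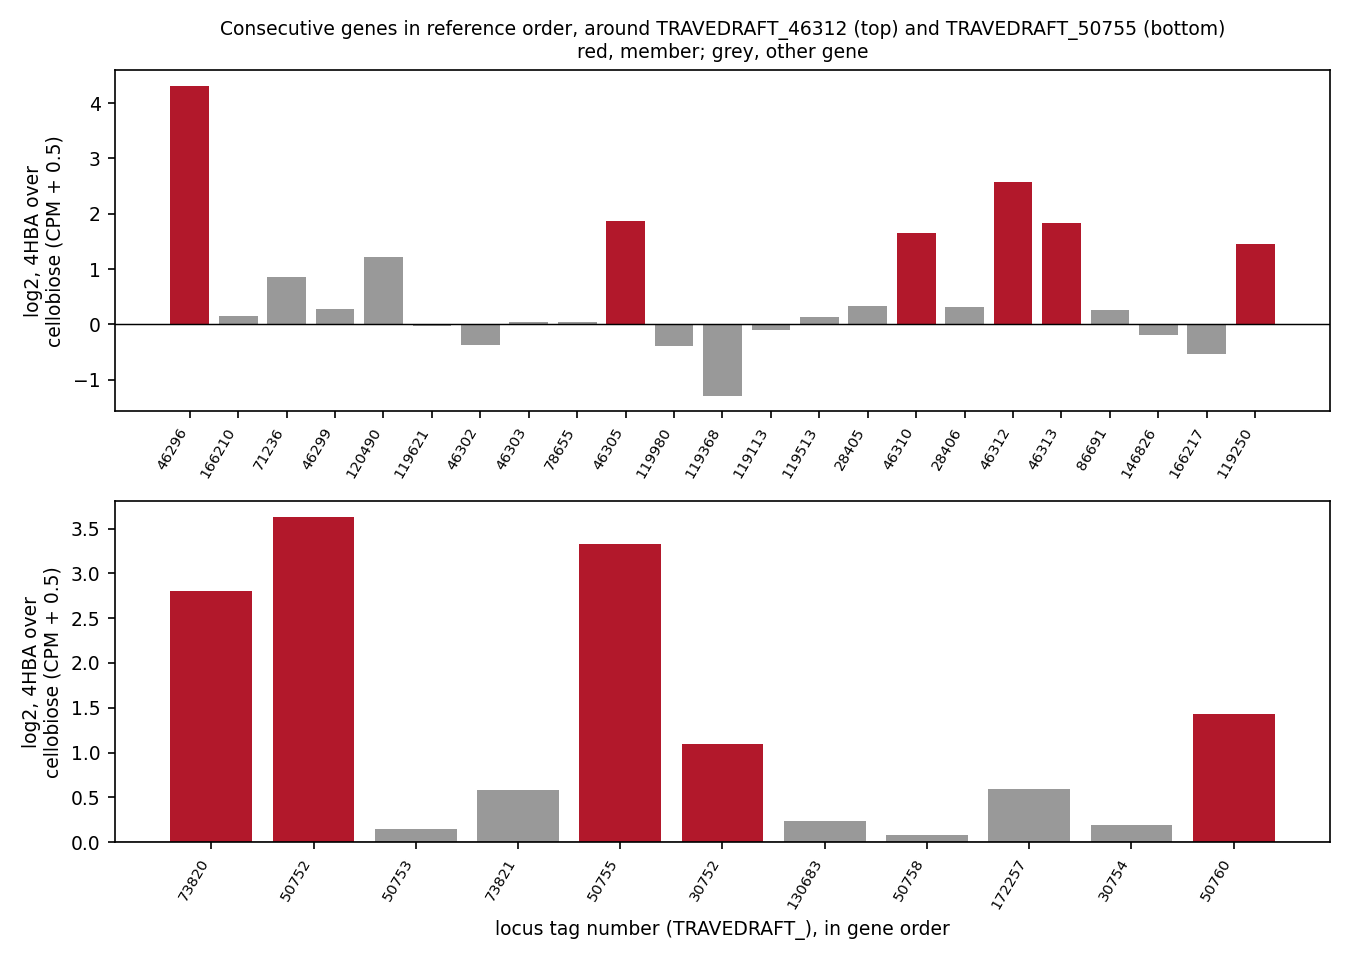
Log2 ratio of 4HBA to cellobiose, from mean CPM + 0.5, for consecutive genes in the reference order around TRAVEDRAFT_46312 (top, 23 genes) and TRAVEDRAFT_50755 (bottom, 11 genes); red bars are members and grey bars other genes. The top panel has 6 red bars and the bottom panel 5, and the grey bars run between -1.29 and 1.22 in the top panel and between 0.08 and 0.60 in the bottom panel. Of the other genes, 5 in the top and 2 in the bottom panel reached 5 CPM with 4HBA, and the offset of 0.5 CPM draws the ratios of low genes towards 0.

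The limits of the rule cut through a continuous range of genes. Just inside the ratio of 2 were TRAVEDRAFT_60981 (2.01) and TRAVEDRAFT_61639 (2.04), and just outside it TRAVEDRAFT_68145 and TRAVEDRAFT_64935 (1.99 each). Just inside 5 CPM were TRAVEDRAFT_18615 (5.13 CPM) and TRAVEDRAFT_20798 (5.65 CPM), and just outside it TRAVEDRAFT_47635 (4.75 CPM) and TRAVEDRAFT_112609 (4.68 CPM). The poplar limit kept TRAVEDRAFT_49658 at 7.37 times and TRAVEDRAFT_168065 at 6.97 times its 4HBA mean, and left out TRAVEDRAFT_127414 at 9.14 times and TRAVEDRAFT_50178 at 10.0 times. The lowest 4HBA library exceeded the highest cellobiose library by 0.0897 CPM in TRAVEDRAFT_46305 and by 2.83 CPM in TRAVEDRAFT_30752, and fell short of it by a difference of -0.737 CPM in TRAVEDRAFT_37968 and of -28.1 CPM in TRAVEDRAFT_166188.

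The laccase gene TvLac3, an oxidase of phenols, carries a symbol in place of a locus tag and is therefore no member, but of the 42 genes with symbols it alone met the numerical limits. It was at 280, 193 and 176 CPM with 4HBA, against 43.5, 47.1 and 60.6 CPM with cellobiose. The lignin libraries of TvLac3, at 266, 493 and 418 CPM, overlapped those with 4HBA and reached higher. With syringic acid TvLac3 was at 126, 85.5 and 151 CPM, above every cellobiose library. On poplar it was at 15.5, 15.8 and 31.2 CPM, below every cellobiose library.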

How the data were processed

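Per the labels' protocols, ribosomal RNA was removed with a kit for yeast before stranded library preparation. The deposited values are raw read counts per gene, and the tools credited by the submitters' processing notes are HTSeq, Bowtie, Bowtie2 and FastQC, with versions and genome build not given in the sources used here. Entries outside genes were left out. Counts of the 15 libraries were normalized by TMM and fitted together, with 1 mean per group, in edgeR 4.0.16 (R 4.3.3) after its default expression filter, and the two-sided quasi-likelihood F-test was adjusted over all 12295 genes by Benjamini-Hochberg. Log2 values are from that fit, and its code was tested on simulated data. Intervals cover 95%. Alternatives were DESeq2 1.42.0, other scalings, no filter, only the groups compared and leaving out each library.

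The members, lists and tests were chosen with earlier results of these data known. Genes were named by size of the 4HBA ratio, by count with 4HBA, by the largest differences between lignin and syringic acid and between poplar and lignin, by closeness to a limit and by being neighbours; exceptions are stated. Lists by product name, and sequence features, were planned but not made, because the tables used here hold neither. Genes with near-identical copies may share reads.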

Additional observations from a re-analysis of the deposited data

How the results depend on the processing

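Each count of members kept its size within 1.5 times under the alternatives tried, with these exceptions. With upper-quartile scaling 5 members were lower with syringic acid than with cellobiose (10 in the fit reported), 8 were lower with lignin than with cellobiose (13), and 8 were higher with syringic acid than with 4HBA (5). With only both groups in the fit 3 were higher with syringic acid than with 4HBA. Leaving out each 4HBA, poplar and cellobiose library in turn gave 140 to 154 selected genes, of which at least 130 were among the 140. Leaving out each library of the groups compared gave, against cellobiose, 74 to 82 higher and 5 to 12 lower with syringic acid, 68 to 74 and 8 to 11 with lignin, and 67 to 69 and 48 to 51 on poplar. The count of 5 came without cellobiose replicate 1 or 2 (6 without syringic acid replicate 1) and the count of 8 without lignin replicate 2. Against 4HBA it gave 4 to 6 higher and 104 to 109 lower with syringic acid, against syringic acid 18 to 25 and 24 to 41 with lignin, and against lignin 53 to 56 and 60 to 66 on poplar. The 24 came without lignin replicate 2. The causes were not tested. Of 2880 values of named genes under alternatives, 2783 stayed on their side of the threshold, 66 lost a call, 31 gained a call and 0 changed sign with a call. Lignin against syringic acid called 1075 of all genes, but 344 with both groups alone, 2258 without syringic acid replicate 2, and 646, 547, 525 and 696 without syringic acid replicate 1 or 3 or lignin replicate 1 or 2. Upper-quartile scaling moved the median log2 difference of all genes to 0.20 for syringic acid and for lignin against cellobiose, 0.25 for syringic acid against 4HBA and -0.25 for poplar against lignin. No paired analysis was possible because replicate numbers were given in accession order and pair no libraries across groups.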
